A study of Mus musculus with 6 samples.

Results

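The genes described here are 10 components of transforming growth factor beta (TGF-beta) signalling, read out in the mouse line mLPS1, dedifferentiated liposarcoma cells, that is cancer cells of adipose origin that have lost fat-cell features. They were chosen by gene symbol, as the rows of the authors' deposited table named Tgfb1, Tgfb2, Tgfb3, Ltbp1, Tgfbr1, Tgfbr2, Smad2, Smad3, Smad7 and Skil, and all 10 were found among its 14472 genes, each on a single row. The series compared 3 libraries of mLPS1 cells labelled NICD Knockout with 3 libraries of mLPS1 cells labelled wild type. NICD stands for the intracellular domain of Notch, which is cut from the activated receptor, moves into the nucleus and turns on target genes through the DNA-binding protein Rbpj. Over-expression of Notch is named in the series title, dNICD cells in the design text and a knockout in the genotype label. The sources used here do not say whether a Notch fragment had been introduced into the cells labelled wild type. The library titles carry a p number (34, 36 and 39 in the knockout; 35, 37 and 40 in wild type) with no word on what it means. The labels name 1 line per genotype and do not say that libraries came from separate cultures or clones, so each p-value reflects how far these particular libraries vary, and that variation may be technical.

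TGF-beta ligands are made as precursors whose propeptide stays wrapped around the mature growth factor, and latent TGF-beta binding proteins such as Ltbp1 tether that inactive complex to the extracellular matrix. Once released, a ligand dimer binds the type II receptor Tgfbr2, which recruits and phosphorylates the type I receptor Tgfbr1, and Tgfbr1 in turn phosphorylates Smad2 and Smad3, which enter the nucleus with Smad4 and act on transcription. Smad7 blocks the activated receptor and the corepressor Skil (SnoN) holds back Smad-driven transcription, and both are themselves induced by the pathway as negative feedback. In the fat lineage TGF-beta is known for holding back adipocyte differentiation, and in fibroblasts and smooth muscle for inducing matrix and contractile genes.

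The comparison asks how TGF-beta pathway genes differ between the line labelled as lacking NICD and the wild type line. The ligand genes Tgfb1, Tgfb2 and Tgfb3, the type I receptor gene Tgfbr1 and the mediator Smad3 fell in the knockout, by 2.43-fold to 5.70-fold in the authors' deposited table. The latency protein gene Ltbp1, the type II receptor gene Tgfbr2, the mediator Smad2 and the corepressor Skil rose, by 1.61-fold to 5.18-fold. Smad7 did not pass the threshold. The count was 9 of 10 members past an adjusted p of 0.05 (4 higher, 5 lower; calls of the authors' deposited table), where 50.5% of all 14470 genes with a p passed, 25.4% higher and 25.1% lower. Among the 6903 genes with a mean normalised count of at least 500, a range that holds all members (571 to 9395), 55.8% passed, 21.6% higher and 34.2% lower. In 7 members the change was 2-fold or more, against 23.2% of all genes and 14.6% of those with a mean of at least 500. The absolute log2 fold change had a median of 1.51 over the members and of 0.37 over these well expressed genes. No test was made of the members as a group.

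The measurements are those of a single comparison in the authors' deposited table, with the mean normalised count over libraries, the log2 fold change (knockout over wild type), its standard error (SE) and an adjusted p for each gene. No value of a single library was used, so neither the depth of a library nor its own value for a member can be given, and the depth is unknown. Intervals below are 95% Wald intervals, and group levels were derived from each gene's mean and fold change, taking 3 libraries per line to have entered, so they carry no error of their own. The labelled cell type was checked against 8 mesenchymal markers: Vim, Fn1, Col1a1 and Cd44 had fitted levels of 66646, 51273, 8050 and 6189 in the knockout and 98030, 134012, 30866 and 6441 in wild type. Col1a2 had 37.4 in the knockout and 15.5 in wild type, and Thy1 was not analysed here. The receptor genes Pdgfrb and Pdgfra changed in opposite directions, with 2081 and 172.5 in the knockout and 16873 and 33.6 in wild type. Among leukocyte markers, Cd68 was higher (2238 in the knockout, 179.0 in wild type), and the defining Ptprc (13.7 in the knockout, 3.74 in wild type) and Csf1r (22.5 and 20.8) did not pass. Of 5 endothelial markers, Kdr was lower and the summed level was 54.2 in the knockout and 71.8 in wild type. Of 6 adipocyte and 6 epithelial markers, 2 each were tested (Fabp4 and Pparg, Krt8 and Krt19). The adipocyte and epithelial sums were 311.8 and 79.5 in the knockout and 18.8 and 6.31 in wild type. Fabp4 (307.4 in the knockout, 4.37 in wild type), Krt8 and Krt19 were higher. Pparg leaned the other way (4.39 in the knockout, 14.4 in wild type) and did not pass. Adipoq, Lep, Plin1, Cidec, Epcam, Cdh1, Krt18 and Krt5 were not analysed here. Markers of pericytes and smooth muscle, contractile cells of vessel walls, were lower for 8 of 9 genes, and the other, Cnn1, did not pass. Their summed fitted level was 8388 in the knockout and 126843 in wild type. The Notch1 gene itself had a log2 fold change of -1.78 (SE 0.13) per the authors' deposited table, but RNA of an introduced fragment and of the endogenous gene would share its row, so this value does not check the labels. The Notch target genes Heyl and Hes1 were lower, with log2 fold changes of -10.65 (SE 1.11) and -2.79 (SE 0.22). Their fitted levels were 10.4 and 117.2 in the knockout and 16696 and 812.8 in wild type.

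**Figure D1:**
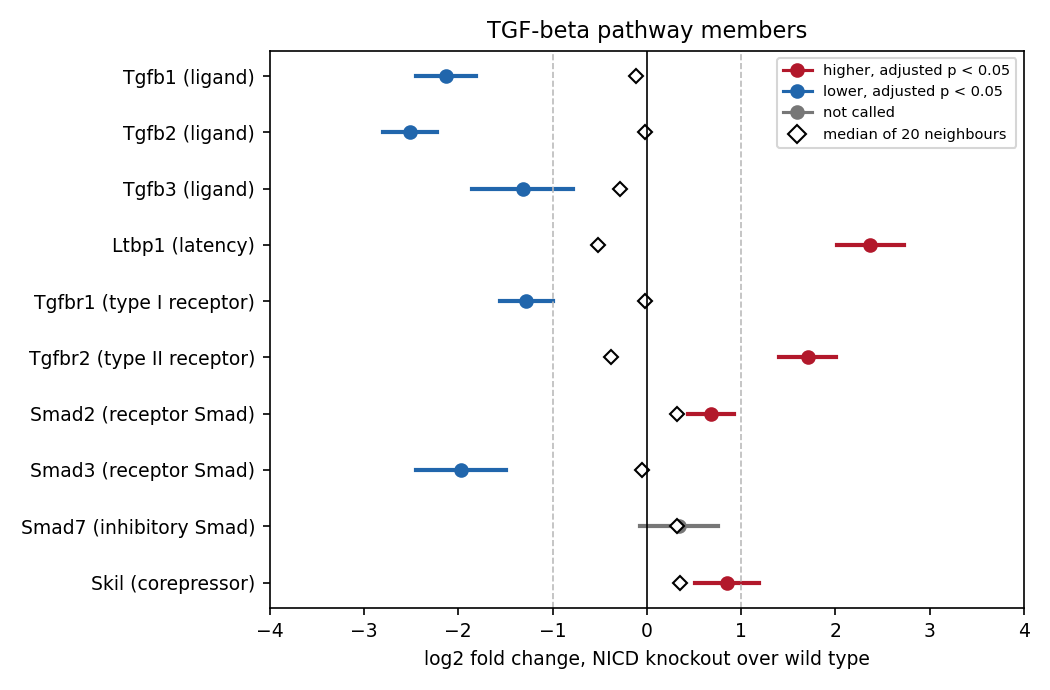
Log2 fold change of each member, NICD knockout over wild type, in the authors' deposited table (points) with 95% Wald intervals (bars), ordered by role, with dashed lines at 2-fold and open diamonds for the median of the 20 nearest expressed protein-coding genes. The 3 ligands, Tgfbr1 and Smad3 lie left of 0, Ltbp1, Tgfbr2, Smad2 and Skil right of it, and the interval of Smad7 covers 0.

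The promoters of the member with the steepest fall (Tgfb2), of the 2 with the steepest rises (Ltbp1 and Tgfbr2) and of Smad3 are shown, since these 4 carry the largest opposite changes within the ligand, latency, receptor and Smad roles together with Tgfb1. They are RefSeq sequences of build GRCm38.p6, 250 bases before to 50 after the annotated start, written 5′ to 3′ on the gene's strand, with capitals marking TGGGAA, the core of Rbpj sites, or CAGAC, which is contained in Smad binding elements, on either strand.
Tgfb2, chr1:186705940-186706239, minus strand: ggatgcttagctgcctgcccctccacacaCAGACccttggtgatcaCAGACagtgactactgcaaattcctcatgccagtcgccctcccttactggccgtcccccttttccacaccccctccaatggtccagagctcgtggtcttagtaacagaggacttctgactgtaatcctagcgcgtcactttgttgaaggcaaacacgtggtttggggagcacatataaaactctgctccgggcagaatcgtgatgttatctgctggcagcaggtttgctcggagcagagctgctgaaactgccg
Ltbp1, chr17:75005279-75005578, plus strand: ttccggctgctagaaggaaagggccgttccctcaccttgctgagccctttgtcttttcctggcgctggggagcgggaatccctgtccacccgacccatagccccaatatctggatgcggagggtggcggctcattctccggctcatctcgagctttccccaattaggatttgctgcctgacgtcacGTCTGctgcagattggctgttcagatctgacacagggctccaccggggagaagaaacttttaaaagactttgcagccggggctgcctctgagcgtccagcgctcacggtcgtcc
Tgfbr2, chr9:116175314-116175613, minus strand: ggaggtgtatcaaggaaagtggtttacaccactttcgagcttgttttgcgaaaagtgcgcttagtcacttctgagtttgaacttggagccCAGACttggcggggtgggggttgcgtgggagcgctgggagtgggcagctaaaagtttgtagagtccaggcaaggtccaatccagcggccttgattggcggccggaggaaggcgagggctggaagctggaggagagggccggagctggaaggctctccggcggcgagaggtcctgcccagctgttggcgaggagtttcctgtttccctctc
Smad3, chr9:63757945-63758244, minus strand: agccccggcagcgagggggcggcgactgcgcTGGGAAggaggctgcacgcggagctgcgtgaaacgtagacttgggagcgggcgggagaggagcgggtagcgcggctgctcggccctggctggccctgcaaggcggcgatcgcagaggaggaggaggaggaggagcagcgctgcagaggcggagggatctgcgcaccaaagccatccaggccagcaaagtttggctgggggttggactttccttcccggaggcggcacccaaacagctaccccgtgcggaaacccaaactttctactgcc
A search of 8 windows for 6 members (Tgfb1, Tgfb2, Tgfbr1, Tgfbr2, Smad3 and Ltbp1, with 2 windows each for Tgfbr1 and Ltbp1) found TGGGAA on either strand in 1 window, that of Smad3, where it starts at base 32 of the printed sequence. It was in 25.6% of all 32851 windows of this length in the table. CAGAC or its reverse complement GTCTG was in 5 of the 8 windows and in 49.6% of all. Tgfb2 holds CAGAC at bases 30 and 47, Tgfbr2 at base 91, and the printed window of Ltbp1 holds GTCTG at base 187. The motifs did not overlap each other in these windows. These are letter matches and no binding was measured.

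Tgfb1 encodes the ligand with the highest level of the family in these cells. Its mean normalised count in the authors' deposited table was 9395, with a fitted level of 3491 in the knockout, against 15299 in wild type. Tgfb1 (ENSMUSG00000002603, chromosome 7) fell 4.38-fold (interval 3.51 to 5.47; log2 fold change -2.13, SE 0.16, adjusted p = 3.58e-37 by DESeq2, as listed in the authors' deposited table). Tgfb2 encodes a ligand that, unlike the other two, needs a co-receptor to bind Tgfbr2 well. It (ENSMUSG00000039239, chromosome 1) had a fitted level of 859.7 in the knockout, against 4903 in wild type, and fell 5.70-fold (interval 4.66 to 6.97; log2 fold change -2.51, SE 0.15, adjusted p = 1.29e-62 by DESeq2, as listed in the authors' deposited table). This was the largest estimate among the 10 members, with an interval that overlaps those of Tgfb1, Smad3 and Ltbp1. Tgfb3 (ENSMUSG00000021253, chromosome 12) had a fitted level of 500.1 in the knockout, against 1247 in wild type. It fell 2.49-fold (interval 1.72 to 3.62; log2 fold change -1.32, SE 0.27, adjusted p = 7.89e-06 by DESeq2, as listed in the authors' deposited table), so its interval reaches below 2-fold.

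The ligands did not fall by equal amounts. The log2 fold change of Tgfb2 minus that of Tgfb3 was -1.19 (interval -1.81 to -0.58, treating the estimates as independent), and that of Tgfb1 minus Tgfb3 was -0.81 (interval -1.44 to -0.19). Tgfb1 minus Tgfb2 was 0.38 with an interval of -0.05 to 0.81, which covers 0. These intervals compare genes within the same libraries and are given as a description. Per kilobase of annotated exon, Tgfb1 made up 70.0% of the summed fitted level of the 3 ligands in the knockout and 71.4% in wild type. Tgfb2 made up 15.0% in the knockout and 19.9% in wild type, and Tgfb3 made up 15.0% in the knockout and 8.67% in wild type. The summed level per kilobase was 988.6 normalised counts in the knockout and 4250 in wild type, so the wild type sum was 4.30 times that of the knockout.

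Ltbp1, whose protein keeps latent TGF-beta in the matrix and is needed for its release by integrins, rose while the ligand genes fell. Ltbp1 (ENSMUSG00000001870, chromosome 17) had a fitted level of 4287 in the knockout, against 827.0 in wild type. It rose 5.18-fold (interval 4.04 to 6.65; log2 fold change 2.37, SE 0.18, adjusted p = 5.39e-37 by DESeq2, as listed in the authors' deposited table), the largest rise among the members. Its neighbours on chromosome 17, the 10 nearest expressed protein-coding genes on each side, had a median log2 fold change of -0.52, so Ltbp1 rose in a stretch that was on balance lower. The ratio of Ltbp1 to Tgfb1 per kilobase of exon was 0.579 in the knockout and 0.0255 in wild type, a 22.7-fold difference.

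The receptor genes moved in opposite directions. Tgfbr2 encodes the type II receptor that binds ligand first. Its fitted level was 3397 in the knockout, against 1040 in wild type. Tgfbr2 (ENSMUSG00000032440, chromosome 9) rose 3.27-fold (interval 2.65 to 4.04; log2 fold change 1.71, SE 0.16, adjusted p = 9.25e-27 by DESeq2, as listed in the authors' deposited table), beside a median of -0.38 for its neighbours. Tgfbr1, the type I receptor gene whose kinase phosphorylates Smad2 and Smad3, had a fitted level of 439.2 in the knockout, against 1066 in wild type. Tgfbr1 (ENSMUSG00000007613, chromosome 4) fell 2.43-fold (log2 fold change -1.28, interval -1.56 to -0.997, SE 0.14, adjusted p = 1.09e-17 by DESeq2, as listed in the authors' deposited table). Per kilobase of exon, the level of Tgfbr2 was 6.17 times that of Tgfbr1 in the knockout and 0.778 times that of Tgfbr1 in wild type. The difference between their log2 fold changes was 2.99 (interval 2.57 to 3.40, treating the estimates as independent), a 7.93-fold shift of the ratio.

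**Figure D2:**
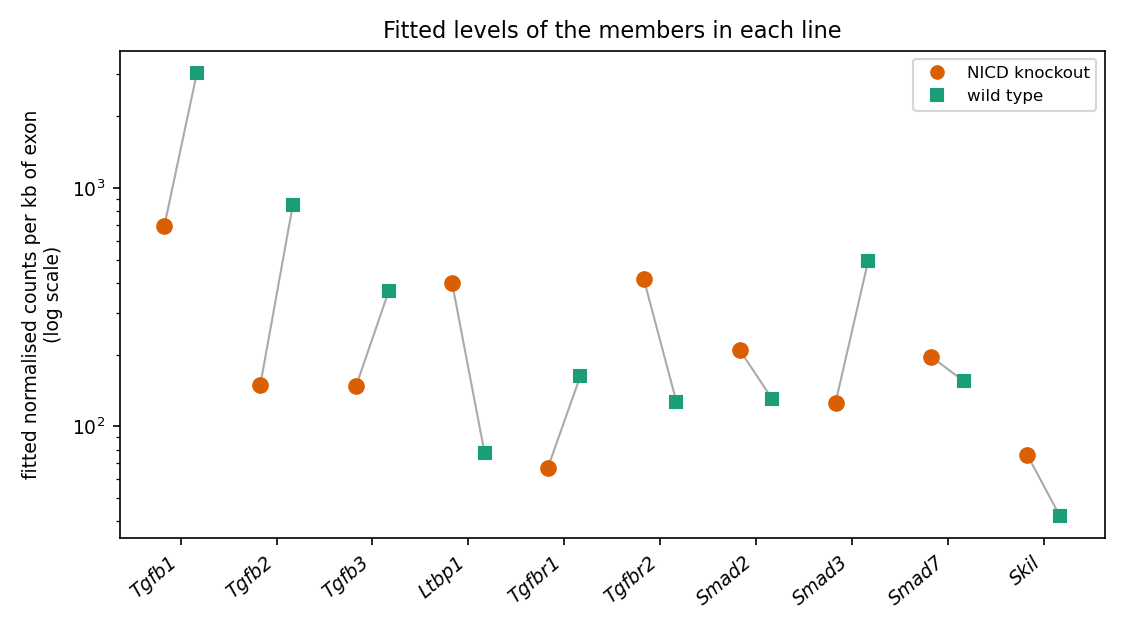
Fitted level of each member per kilobase of annotated exon in the NICD knockout (circles, left) and in wild type (squares, right), in normalised counts on a log scale, with no error bars because levels are fitted from 1 mean and 1 fold change per gene. Smad2 and Smad3 change places between the lines, while Tgfb1 is the highest member in both. Tgfbr2 lies above Tgfbr1 in the knockout. In wild type Tgfbr2 lies slightly below Tgfbr1, with no error that would separate them.

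The receptor-activated Smads split in the same way. Smad3 binds DNA directly and fell 3.93-fold (interval 2.82 to 5.47; log2 fold change -1.97, SE 0.24, adjusted p = 8.54e-15 by DESeq2, as listed in the authors' deposited table). Smad3 (ENSMUSG00000032402, chromosome 9) had a fitted level of 697.5 in the knockout, against 2740 in wild type. Smad2, whose main isoform does not bind DNA by itself, had a fitted level of 1836 in the knockout, against 1143 in wild type. Smad2 (ENSMUSG00000024563, chromosome 18) rose 1.61-fold (interval 1.35 to 1.91; log2 fold change 0.68, SE 0.13, adjusted p = 2.97e-07 by DESeq2, as listed in the authors' deposited table). Its whole interval lies under 2-fold, which sets it apart in size from the rises of Ltbp1 and Tgfbr2. Per kilobase of exon, Smad2 stood at 1.66 times the level of Smad3 in the knockout and at 0.263 times that of Smad3 in wild type. The log2 fold change of Smad2 minus that of Smad3 was 2.66 (interval 2.12 to 3.20, treating the estimates as independent).

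The estimates for the inhibitors Skil and Smad7 lay under 2-fold, as did that for the mediator Smad2. Skil (ENSMUSG00000027660, chromosome 3) had a fitted level of 735.0 in the knockout, against 407.7 in wild type. It rose 1.80-fold (interval 1.43 to 2.28; log2 fold change 0.85, SE 0.17, adjusted p = 3.84e-06 by DESeq2, as listed in the authors' deposited table). Smad7 (ENSMUSG00000025880, chromosome 18) had a fitted level of 884.6 in the knockout, against 698.3 in wild type. Its log2 fold change of 0.34 (SE 0.21, interval -0.08 to 0.76, adjusted p = 0.173 by DESeq2, as listed in the authors' deposited table) did not pass, and its interval runs between 0.949 and 1.69 times the wild type level.

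Some members lie among neighbours on the chromosome that shifted the same way. Smad2 and Smad7 lie close together on chromosome 18 and had the same neighbour median, 0.32, and the neighbours of Skil on chromosome 3 had a median of 0.35. With that median subtracted, the log2 fold change of Smad2 was 0.37 (adjusted p = 0.00907 by the Wald test over all genes), that of Skil was 0.50 (adjusted p = 0.0104) and that of Smad7 was 0.03 (adjusted p = 0.937). The neighbours of Tgfb3 had a median of -0.28, and its value after subtraction was -1.04 (adjusted p = 5.84e-04). The neighbours of Tgfb2, Tgfbr1, Smad3 and Tgfb1 lay between -0.11 and -0.02. The adjusted p after subtraction used the SE of the gene alone and took the neighbour median as free of error, so it may be too small. On that footing Smad2, Skil and Tgfb3 passed with and without the subtraction, and Smad7 in neither case.

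**Figure D3:**
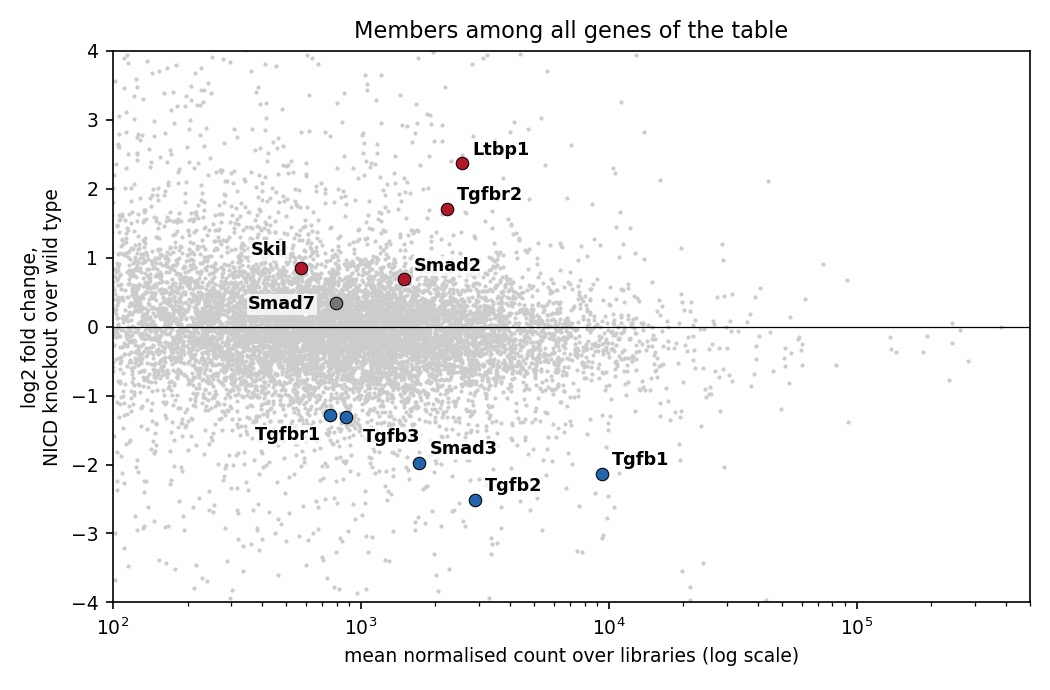
Log2 fold change, knockout over wild type, against the mean normalised count on a log scale for genes of the authors' deposited table (grey) with the 10 members in colour (red higher, blue lower, grey not called). The axes are limited to means of at least 100 and log2 fold changes of -4 to 4, and genes outside are not drawn. Tgfb1 and Tgfb2 lie below most genes of like mean and Ltbp1 and Tgfbr2 above them.

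Precision differed between members. Genes whose mean reached 500 had a median SE of 0.14 by the authors' deposited table (log2 scale). Tgfb3, at an SE of 0.27, was less precise than 97.3% of the 2954 genes whose mean lay within 1.5-fold of its own, and Smad3, at 0.24, less precise than 96.5% of 2291 such genes. Smad7 had a larger SE than 89.6% and Ltbp1 than 87.7% of the genes of like mean, while Smad2 and Tgfbr1 were exceeded by most. Under a negative binomial model with 3 libraries per line, these SEs correspond to a fitted spread between libraries of the same line (coefficient of variation) of 23.0% for Tgfb3, 20.5% for Smad3, 17.7% for Smad7 and 10.3% for Smad2. Which libraries carried the wider spread of Tgfb3 and Smad3 cannot be read from 1 value per gene. In the annotation, exons of 2 non-coding genes on the opposite strand share 163 and 257 bases with Tgfb3, and 1 antisense gene shares 124 bases with Tgfb2. None of these 3 was analysed here, and the sources used here do not say whether reads were counted by strand.

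Per kilobase of exon, the order of the members in the knockout ran from Tgfb1 (692.4 fitted normalised counts) through Tgfbr2 (415.0), Ltbp1 (401.0), Smad2 (209.1), Smad7 (195.7), Tgfb2 (148.5), Tgfb3 (147.8), Smad3 (125.9) and Skil (75.8) to Tgfbr1 (67.2). The order in wild type ran from Tgfb1 (3034 fitted normalised counts) through Tgfb2 (846.7), Smad3 (494.3), Tgfb3 (368.6), Tgfbr1 (163.2), Smad7 (154.5), Smad2 (130.2), Tgfbr2 (127.0) and Ltbp1 (77.4) to Skil (42.1). Tgfb1 held the first place in both lines, and Ltbp1 and Tgfbr2 stood at ranks 3 and 2 in the knockout and at ranks 9 and 8 in wild type. Lengths are the union of all annotated exons, so a gene with long rarely used exons is placed too low, and neighbours in these orders such as Tgfb2 and Tgfb3 in the knockout, or Smad2 and Tgfbr2 in wild type, have no error that would separate them.

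The rest of the pathway was read from 7 lists with 108 genes by name. Of 96 tested, 71 passed (74.0%, beside 50.5% of all genes), 24 upward and 47 downward by the authors' deposited table. Their log2 fold changes had a median of -0.34, beside 0.02 for all genes and -0.10 for genes with a mean of at least 500. Those well expressed genes lean downward too, with 34.2% lower and 21.6% higher. In storage and activation of latent TGF-beta, 10 of 18 genes fell and 4 rose, with a median of -0.61. Lrrc32 (GARP), which holds latent TGF-beta on the cell surface, had a log2 fold change of -2.78 (SE 0.17), the integrin gene Itgb3 one of -3.07 and Furin, the protease that cuts the propeptide, one of -1.39, as listed in the authors' deposited table. The 4 that rose all had means of at most 77.3. Among co-receptors and related receptors, 5 of 9 fell and 1 rose (median -0.99). The BMP and activin receptor gene Acvr1, Bmpr2 and the decoy receptor gene Bambi fell, at -1.42, -1.02 and -3.16 on the log2 scale of the authors' deposited table.

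In the list headed other ligands of the Smad2 and Smad3 branch and their traps, 5 of 9 rose and 3 fell (median 0.57). Those that fell were Inhba, Gdf11 and Gdf15, of which Gdf15 is not an established ligand of this branch. Those that rose were Inha, Fst, Fstl1, Dcn and Bgn, which encode antagonists or binding proteins. Inha, Fst and Dcn had low means (84.7, 57.8 and 34.9). The trap gene Fstl3, with a mean of 2881, did not pass (log2 fold change -0.26, SE 0.14, by DESeq2). Among genes with a mean of at least 100, 2 of the list were higher and 3 lower. The activin subunit gene Inhba fell (-1.64, SE 0.14, on the log2 scale of the authors' deposited table), and the proteoglycan gene Bgn, whose protein binds TGF-beta, rose with 3.15. The proteoglycan gene Dcn reached a fitted level of 69.2 in the knockout and was fitted under 1 count per library in the wild type line, and with wild type at that floor its log2 fold change was 6.11. Of 13 other Smads, anchors and nuclear partners, 5 fell and 2 rose (median -0.03), a share of 53.8% that is near the 50.5% of all genes. Among them were Smad9 at a log2 fold change of 2.28, the Smad partner gene Foxh1 at 4.28 on a mean of 25.7, and the coactivator gene Crebbp at -0.86 in the authors' deposited table. The shared mediator Smad4 did not pass (log2 fold change 0.31, SE 0.16, by DESeq2) and was singled out after its value was seen.

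The list headed negative regulators of Smad signalling had 8 of 15 lower and 5 higher (median -0.26). It also holds Rnf111 (lower, -0.26), Usp15 (higher, 0.40) and Usp9x (not passing), whose proteins are known to promote Smad signalling. These are thus not counts of inhibitors alone. Spry1, which is better known as an inhibitor of receptor tyrosine kinase signalling, Cd109, a TGF-beta co-receptor that dampens signalling, and the ubiquitin ligase gene Smurf2 fell, at -4.77, -2.45 and -0.64 on the log2 scale of the authors' deposited table. Known transcriptional targets of TGF-beta had 11 of 22 lower and 7 higher (median -0.69). The contractile genes Tagln and Acta2 fell with log2 fold changes of -7.07 and -3.96, as listed in the authors' deposited table. Tagln and Acta2 are also markers of smooth muscle, so the target list does not measure TGF-beta signalling alone. In bulk RNA, fewer cells of a type and less RNA per cell cannot be told apart, and the part of the smooth muscle markers in these counts was not tested. The list headed kinases of non-Smad TGF-beta signalling also holds genes whose proteins are not kinases, Rhoa and Pik3r1 among them. Of its 10 genes, 5 were lower and 5 did not pass (median -0.41), and this share too is near the 50.5% of all genes. Mapk14, Pik3r1 and Rhoa had log2 fold changes of -0.79, -1.12 and -0.43, as listed in the authors' deposited table.

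**Figure D4:**
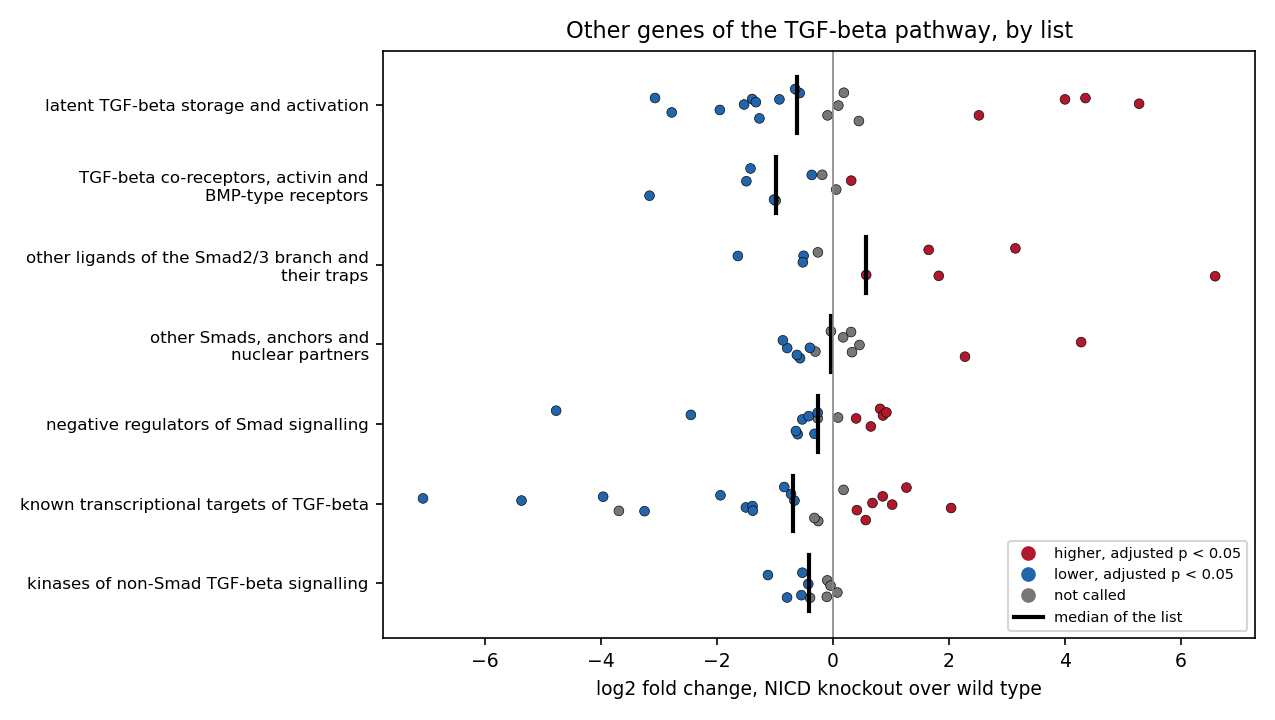
Change on the log2 scale, knockout over wild type, of the tested genes in each of the 7 pathway lists (points; red higher, blue lower, grey not called at an adjusted p of 0.05) with the median of each list (black bar). The list of other ligands and traps has its median at 0.57, although Inhba, Gdf11 and Gdf15 are lower. The medians of the other 6 lists lie between -0.99 and -0.03.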

How the data were processed

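Total RNA of 6 mLPS1 libraries was sequenced, per the labels' protocols. Salmon, DESeq2 and build mm39 are named in the submitters' processing notes, without versions, order or settings. Per the file headers, the authors deposited a mean normalised count per gene (a signal), a log2 fold change with its SE, the Wald statistic (a score), and a p-value with its adjusted form. The direction, knockout over wild type, comes from the name of that table. Recomputing statistic, p and Benjamini-Hochberg adjustment gave differences of at most 1.56e-13. Of 14472 rows, 2 have no p.

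Calls are the authors' at an adjusted p under 0.05. The planned edgeR fit needs counts of single libraries and was not run. Intervals are 1.96 SEs either way. Neighbour medians and exon lengths use GENCODE M21 (GRCm38), matched by gene identifier for 14456 rows (99.9%), so no gene coordinates in mm39 are printed. Neighbours were the 10 nearest protein-coding genes on each side whose mean reached 100. A change beyond 2-fold was tested from fold change and SE. The steps were checked on simulated fold changes. Besides the members, the 3 genes of smallest adjusted p in each pathway list were named, of which 1 is not reported here. The members and lists were chosen with earlier results of these data known. Python 3.11.15, numpy 2.4.6, pandas 2.3.3, scipy 1.17.1 and matplotlib 3.10.9 were used.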

Additional observations from a re-analysis of the deposited data

How the results depend on the processing

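The direction of every member was kept under 7 alternatives: an adjusted p of 0.01, Bonferroni, a test beyond 2-fold, adjustment over genes with a mean of at least 10 or at least 100, centring on expressed genes (a shift of -0.05) and subtraction of neighbours. Of 70 member values under them, 66 stayed on their side of the threshold, and 4 did not, all under the test beyond 2-fold, which left 5 members (Tgfb1, Tgfb2, Smad3, Tgfbr2 and Ltbp1). Tgfb3, Tgfbr1, Smad2 and Skil did not pass it (adjusted p = 1, 0.357, 1 and 1 by the Wald test over all genes). Under that test the all-gene count was 1606. The lists kept 8 storage and activation genes, 1 receptor, 3 ligands and traps, 2 other Smads and partners, 2 negative regulators, 6 targets and 0 genes of the non-Smad list (0 at an unadjusted p under 0.05, and no other tool was run). Bonferroni gave 3175 of all genes, 4 ligands and traps, 4 other Smads and partners, 5 negative regulators, 10 targets and 2 genes of the non-Smad list. Restriction to a mean of at least 100 gave 5 ligands and traps (2 higher, 3 lower), since fewer genes were tested. No member symbol stands on 2 rows. Leaving out libraries, other size factors and DESeq2 against edgeR were not run, as they need values of single libraries. No paired analysis was possible because the labels give the lines no shared replicate numbers and the table holds 1 comparison.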
